A study of Homo sapiens with 3 samples.

Results

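Integrins and laminins were followed in CAL27 cells and in the resistant lines CAL27/5FU and CAL27/OXA. The 36 genes are a fixed list of 26 integrin and 10 laminin subunit genes, taken by symbol from the 19220 genes of the count table. All 36 symbols were found, and 31 of them reached a mean of 10 counts over the 3 libraries, the filter for forming ratios. The genes were grouped by role into 4 hemidesmosomal, 8 fibronectin-binding and 7 leukocyte-type subunits, with 4 collagen-binding subunits, 2 other laminin-binding alpha subunits, 3 other integrins and 8 other laminin chains beside them.

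The study compared parental oral squamous cell carcinoma (OSCC) cells with drug-resistant derivatives by RNA sequencing of total RNA, with 1 labelled library per line. CAL27 is a tongue squamous carcinoma line, labelled WT here and grown free of drug. CAL27/5FU is labelled 5-fluorouracil resistant and was kept in 10 μM 5-fluorouracil (5FU), while CAL27/OXA is labelled oxaliplatin resistant and was kept in 10 μM oxaliplatin (OXA); all lines shared the same serum-supplemented high-glucose medium. The 5FU line was obtained by raising the drug step by step over months, and the sources used here do not say whether either resistant line is a clone or how the OXA line was selected. Resistance, presence of the drug and long culture therefore cannot be told apart, and neither can a change in RNA per cell and a change in the mixture of cells.

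Integrins are receptors made of an alpha and a beta subunit that tie the cell to its matrix, and the pair sets the ligand. In stratified epithelium, alpha6 beta4 integrin holds the hemidesmosome to laminin-332 in the basement membrane and to keratin filaments inside the cell. Fibronectin receptors serve migrating and wound-edge cells, and the beta2 and beta7 integrins are known mainly from leukocytes. Laminins are trimers of an alpha, a beta and a gamma chain that build the sheet on which epithelia sit.

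Library totals were 41786182 counts (CAL27), 37297713 (CAL27/5FU) and 43455488 (CAL27/OXA). Squamous markers were present in all lines, although 5 of 6 of them fell past 2-fold in CAL27/5FU and 4 of 6 in CAL27/OXA. Of all 13676 tested genes, 6.7% and 9.28% were lower in these lines. CDH1, at 14800, 13459 and 15076 counts in CAL27, CAL27/5FU and CAL27/OXA, was within 2-fold in both. KRT6A had 36872, 6617 and 3403 counts and DSG3 had 4244, 1762 and 2375. TP63, which fell in CAL27/5FU alone, had 23645, 9759 and 29498. With 1 library per line there was no replicate spread and no test. Each log2 ratio was formed on TMM-scaled counts (TMM corrects library totals for composition) with a prior count of 2, which draws ratios of low counts toward 0, and its 95% Clopper-Pearson interval, taken on the plain counts, covers counting error only. Genes past 2-fold, that is, past 1 on the log2 scale, were called higher or lower, and both resistant lines were set against the same CAL27 library.

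In FPKM (fragments per kilobase of gene model, scaled to library size, the deposited unit that allows levels of different genes to be compared), the list was led by epithelial subunits. LAMB3, the beta chain of laminin-332, stood first in every library with an FPKM of 319 in CAL27, with 290.2 in CAL27/5FU and 428 in CAL27/OXA. ITGA3, the alpha subunit of a laminin receptor with beta1, was the next with an FPKM of 179, 214 and 279. The 7 leukocyte-type genes together reached a summed FPKM of only 5.14, 8.43 and 4.12, against 547, 449 and 662 for the 4 hemidesmosomal genes. The 8 fibronectin-binding genes lay between them at a summed FPKM of 263, 245 and 220.

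**Figure D1:**
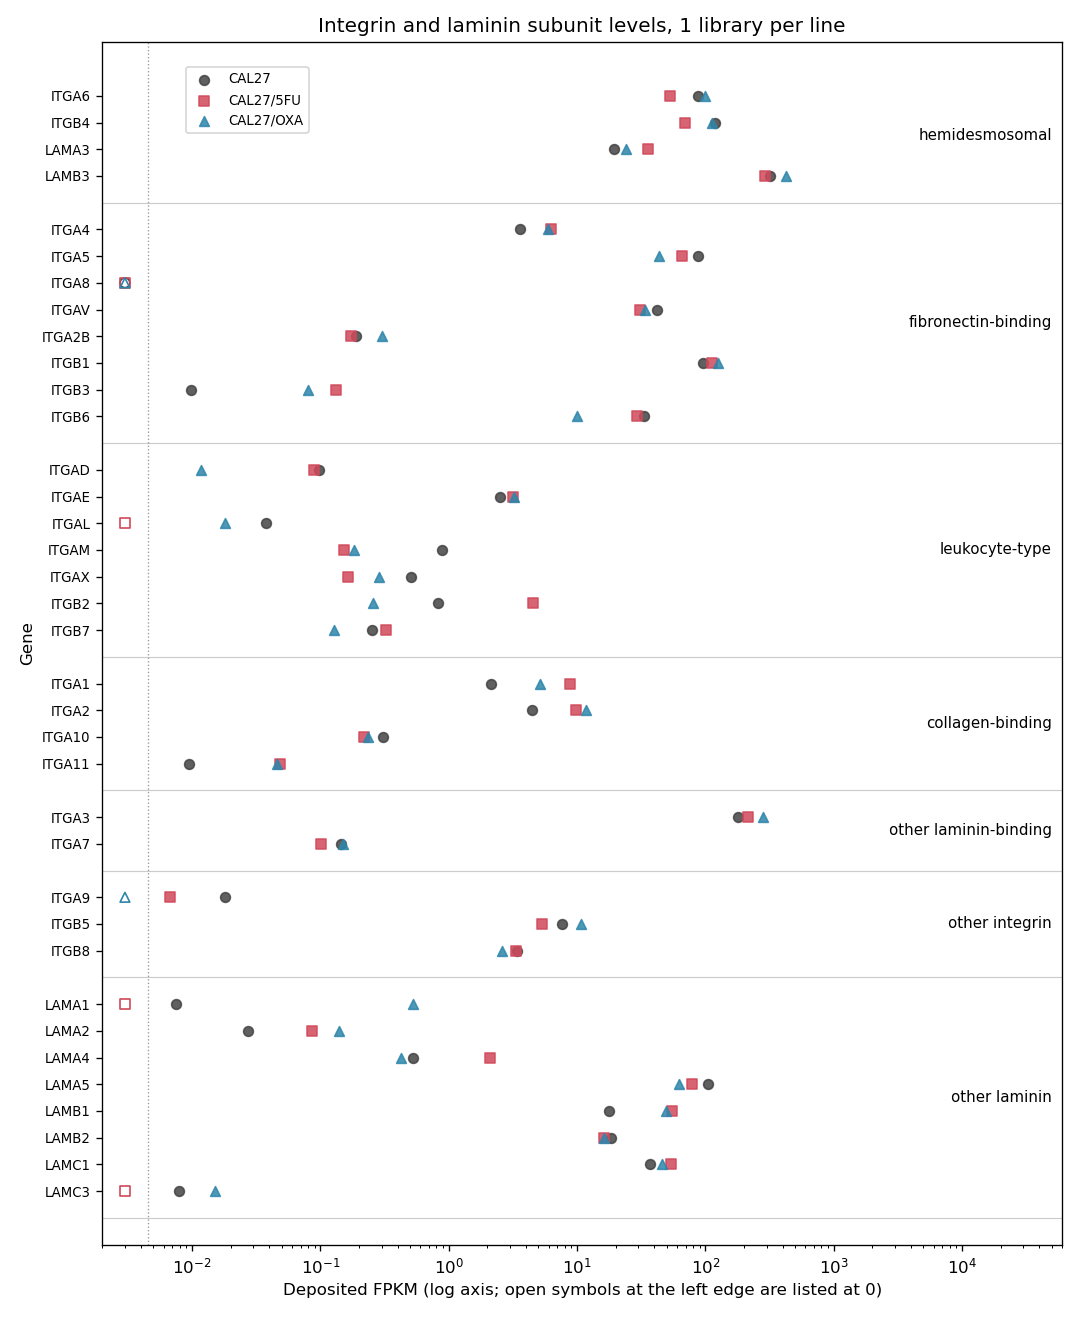
Deposited FPKM (log axis) of the 36 integrin and laminin genes in the 3 libraries, grouped by role, with open symbols at the left edge for genes listed at 0. The hemidesmosomal genes all lie above an FPKM of 19, whereas the leukocyte-type genes lie below 5.

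Against CAL27, 6 of the 31 tested genes were past 2-fold higher in CAL27/5FU and 2 were lower. Over all 13676 tested genes, 8.43% were higher and 6.7% lower in this comparison. In CAL27/OXA, 6 were higher and 6 were lower, against 6.54% and 9.28% of all tested genes. LAMA1 had no ratio in CAL27/5FU and reached the filter only through CAL27/OXA, where it is among the 6 higher. The median log2 ratio of the list was -0.22 in CAL27/5FU and 0.03 in CAL27/OXA, with medians over all tested genes of -0.0035 and 0.0055. Of the 31 genes, 17 stayed within 2-fold in both resistant lines. Over all tested genes, 22.4% were past 2-fold in at least 1 resistant line. ITGB3, ITGA1, LAMA2 and LAMB1 rose in both lines, ITGAM fell in both, and ITGB2 rose in CAL27/5FU and fell in CAL27/OXA. The share of all tested genes that moved in both lines was not computed, and both ratios use the same CAL27 library.

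Under a stricter rule that places the whole counting interval past 2-fold, 5 genes were higher and 2 lower in CAL27/5FU (5.48% and 4.34% of all tested genes). By the same rule, 4 were higher and 5 lower in CAL27/OXA (3.85% and 6.32%), and 1 was higher and 3 lower for CAL27/OXA over CAL27/5FU (2.33% and 5.18%).

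**Figure D2:**
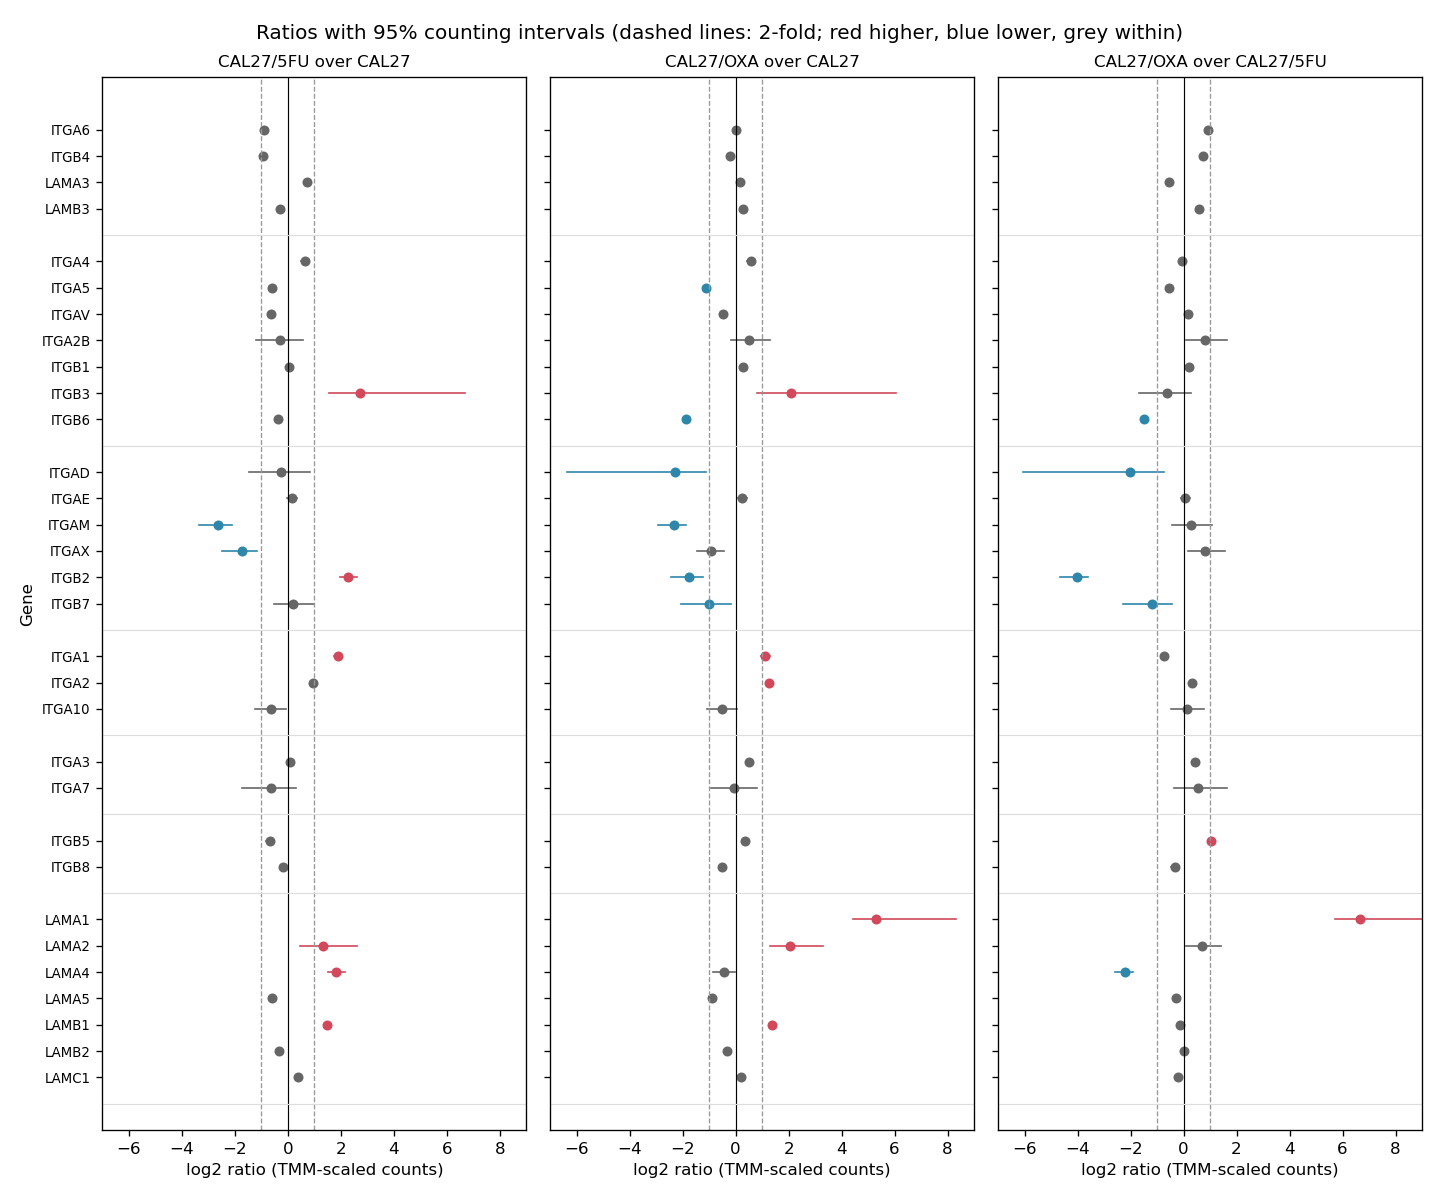
Log2 ratios of TMM-scaled counts for the tested genes in the 3 comparisons, with 95% counting intervals as bars, 2-fold limits as dashed lines, red for higher, blue for lower and grey for within 2-fold; the rows run from hemidesmosomal genes at the top through fibronectin-binding, leukocyte-type, collagen-binding, other laminin-binding and other integrins to other laminins. All 4 hemidesmosomal genes are grey in every panel, LAMA1 has no point in the left panel because both libraries held at most 3 counts, and its point in the right panel depends on the prior count and its interval there has no upper end.

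The hemidesmosomal genes stayed within 2-fold of CAL27 in both lines, and 0 of 4 were called. Of all tested genes, 15.1% were past 2-fold in either direction in CAL27/5FU and 15.8% in CAL27/OXA. Among only 4 genes, a count of 0 is near those shares. ITGA6, the alpha subunit of the hemidesmosomal receptor (chr2:172427354-172506282, plus strand, GRCh38), had 21011 counts in CAL27, with 11277 in CAL27/5FU and 24382 in CAL27/OXA. ITGB4, its beta partner with the long cytoplasmic tail that binds plectin (chr17:75721328-75757818, plus strand), had 29143, 15117 and 28410 counts. Both were lowest in CAL27/5FU. Their log2 ratios against CAL27 were -0.90 (interval -0.94 to -0.87) and -0.95 (-0.98 to -0.93) in CAL27/5FU, just inside the 2-fold limit, and 0.03 and -0.23 in CAL27/OXA. The FPKM ratio of ITGA6 to ITGB4 was 0.737, 0.763 and 0.878 in the 3 libraries.

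The laminin chains of this group followed another order. LAMA3, the alpha chain of laminin-332, had 5478, 9031 and 7049 counts in CAL27, CAL27/5FU and CAL27/OXA, with the highest value in CAL27/5FU (log2 ratio of 0.71, interval 0.67 to 0.76). LAMB3 had 55226, 44793 and 76914 counts, with log2 ratios of -0.31 and 0.29 in the resistant lines. The group's median log2 ratio was -0.61 in CAL27/5FU and 0.10 in CAL27/OXA. Keratins that hemidesmosomes anchor moved further in the same libraries, as KRT5 had 286124, 46083 and 72716 counts and KRT14 had 58222, 948 and 8423. The part of this squamous shift in the values of ITGA6 and ITGB4 was not tested.

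RefSeq start-site windows, from 250 bases before to 50 bases after a start on GRCh38.p14, were held for 25 of the 36 genes and searched on both strands for TGANTCA (AP-1, the Fos and Jun site), CTTTGA (TCF/LEF, the site through which beta-catenin acts) and CACCTG (the E-box bound by Snail and ZEB repressors), as well as GGGCGG (the GC box). Of all 35116 windows, 7.71% held the AP-1 letters, 12.9% the TCF/LEF letters, 20.6% the E-box and 45.0% the GC box. Of the 32 windows of the listed genes, the AP-1 letters occurred in 3, those of ITGA5, LAMA3 and LAMB3. The TCF/LEF letters occurred in 6, the E-box in 7 and the GC box in 19. A match is only a match of letters and does not show binding. The LAMA3 window (chr18:23872770-23873069, plus strand) lies at a start inside the annotated span of the gene and is shown because it held 2 AP-1 matches, at positions 126 and 182, with an E-box at position 178 that overlaps the latter by 2 bases; here and in the windows printed for other genes, capitals mark AP-1, TCF/LEF or E-box matches.
LAMA3: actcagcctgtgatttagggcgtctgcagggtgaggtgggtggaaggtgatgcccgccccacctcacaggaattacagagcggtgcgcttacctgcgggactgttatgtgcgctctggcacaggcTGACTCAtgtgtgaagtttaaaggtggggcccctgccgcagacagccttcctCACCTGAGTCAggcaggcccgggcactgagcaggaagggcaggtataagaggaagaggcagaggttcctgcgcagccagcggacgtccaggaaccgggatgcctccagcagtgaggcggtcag

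Among fibronectin-binding genes, the common beta subunit ITGB1 was within 2-fold of CAL27, and ITGA5 and ITGB6 fell in CAL27/OXA. ITGB1, which is shared by most fibronectin, collagen and laminin receptors, had 15213, 15947 and 20809 counts in CAL27, CAL27/5FU and CAL27/OXA, with log2 ratios of 0.06 and 0.26. ITGA5, the alpha subunit of the classical fibronectin receptor (chr12:54395261-54419460, minus strand), had 15543, 10338 and 8096 counts. It was highest in CAL27 and fell in CAL27/OXA with a log2 ratio of -1.13 (interval -1.17 to -1.09), while that in CAL27/5FU was -0.60. The ITGA5 call lay close to the limit, with -1.13 to -0.98 over the alternatives, and was lost with total-count scaling and with either FPKM pseudocount.

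ITGB6 encodes the beta subunit of the epithelial receptor alphav beta6, which binds fibronectin and activates latent TGF-beta (chr2:160099666-160200313, minus strand). It had 6309 counts in CAL27, with 4928 in CAL27/5FU and 1975 in CAL27/OXA. CAL27/OXA stood below both other lines, with a log2 ratio of -1.86 against CAL27 (interval -1.94 to -1.79) and -1.50 against CAL27/5FU (-1.58 to -1.43). ITGAV, its alpha partner, had 12195, 7967 and 10107 counts and was within 2-fold everywhere (log2 ratios of -0.62 and -0.46). The FPKM ratio of ITGAV to ITGB6 was accordingly 1.26 in CAL27, with 1.06 in CAL27/5FU and 3.35 in CAL27/OXA. An annotated transcript on the same strand, AC092153.1, shares 20.6% of the exon bases of ITGB6.

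The remaining fibronectin-binding genes were lower in level. ITGA4, the alpha4 subunit that also binds VCAM1, had 679, 1057 and 1156 counts, with log2 ratios of 0.63 and 0.58. ITGB3, the beta subunit of the platelet receptor and of alphav beta3, had 2 counts in CAL27, with 24 in CAL27/5FU and 17 in CAL27/OXA. Its plain count ratio was 11.9 in CAL27/5FU and 7.45 in CAL27/OXA, and the log2 ratios with the prior count were 2.72 (interval 1.57 to 6.70) and 2.11 (0.82 to 6.06). On FPKM with a pseudocount of 1 the log2 ratios were 0.16 and 0.10, within 2-fold, and the call in CAL27/OXA was lost with a pseudocount of 0.1 as well. The ITGB3 values rest on few counts, 51.6% of its exon bases are shared with the readthrough gene AC068234.1 on the same strand, and the platelet markers PF4 and GP9 had at most 7 counts in any library. ITGA2B, the platelet alpha partner, had 27, 22 and 45 counts and ITGA8 had 0 in all 3 libraries.

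Over the fibronectin-binding group, 1 gene was higher and 0 were lower in CAL27/5FU, and 1 was higher and 2 were lower in CAL27/OXA, of 7 tested. The shares of all tested genes were 8.43% higher and 6.7% lower in CAL27/5FU, and 6.54% and 9.28% in CAL27/OXA. The group's median log2 ratio was -0.28 in CAL27/5FU and 0.26 in CAL27/OXA, and the latter turned to -0.46 when genes under a mean of 50 counts were left out. The windows of the 2 genes that fell in CAL27/OXA are shown because they are unlike each other. The ITGA5 window (chr12:54419217-54419516, minus strand) had a GC content of 69.3%, a GC box and an AP-1 match at position 245. That of ITGB6 (chr2:160200223-160200522, minus strand) had a GC content of 31.7% against a median of 58.7% over all windows, an E-box at position 181 and 0 GC boxes.
ITGA5: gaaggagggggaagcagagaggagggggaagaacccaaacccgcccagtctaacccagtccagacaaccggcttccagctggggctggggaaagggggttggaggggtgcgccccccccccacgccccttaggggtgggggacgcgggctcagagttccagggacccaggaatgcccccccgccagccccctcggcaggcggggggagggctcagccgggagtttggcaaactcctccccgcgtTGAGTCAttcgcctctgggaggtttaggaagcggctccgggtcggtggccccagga
ITGB6: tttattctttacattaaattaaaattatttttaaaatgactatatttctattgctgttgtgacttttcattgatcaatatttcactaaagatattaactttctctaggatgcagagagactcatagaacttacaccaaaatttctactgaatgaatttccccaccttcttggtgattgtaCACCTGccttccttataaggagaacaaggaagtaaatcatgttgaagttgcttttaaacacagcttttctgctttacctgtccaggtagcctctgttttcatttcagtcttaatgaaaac

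The leukocyte-type genes showed large ratios on small counts. ITGB2, the beta subunit shared by LFA-1 and Mac-1 (chr21:44885953-44931989, minus strand), had 102 counts in CAL27, with 497 in CAL27/5FU and 33 in CAL27/OXA. CAL27/5FU was highest and CAL27/OXA lowest, and the 3 counts were far apart. The log2 ratio was 2.26 in CAL27/5FU (interval 1.97 to 2.60), -1.75 in CAL27/OXA (-2.43 to -1.24) and -4.01 between CAL27/OXA and CAL27/5FU (-4.65 to -3.59). In FPKM it reached 0.830, 4.53 and 0.258, so that even its highest level was a small part of that of ITGB1. An antisense gene, ITGB2-AS1, shares 4.46% of its exon bases, and the strand setting of the counting is not given in the sources used here.

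The alpha partners of beta2 were below CAL27 or within 2-fold of it in both resistant lines. ITGAM, the alpha subunit of Mac-1 (chr16:31259967-31332892, plus strand), had 176, 27 and 38 counts and fell in both resistant lines, with log2 ratios of -2.63 (interval -3.35 to -2.12) and -2.34 (-2.95 to -1.89). ITGAX, the alpha subunit of the complement receptor marked by CD11c, had 93, 27 and 55 counts and fell in CAL27/5FU (-1.72, interval -2.47 to -1.16), with -0.92 in CAL27/OXA. ITGAL, the alpha subunit of LFA-1, had 8, 0 and 4 counts and did not reach the filter. ITGAD, which pairs with beta2 as well, had 16, 13 and 2 counts, with a plain count ratio of 0.110 in CAL27/OXA (log2 ratio with the prior count of -2.29, interval -6.35 to -1.10). In CAL27/5FU the beta subunit was thus above CAL27 while ITGAM and ITGAX were below it, and in CAL27/OXA ITGB2, ITGAM and ITGAD all fell.

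ITGAE, the alpha subunit of the E-cadherin receptor of intraepithelial T cells, was steady at 408, 456 and 543 counts. ITGB7, the beta subunit it pairs with, had 30, 35 and 16 counts and sat at the 2-fold limit in CAL27/OXA (log2 ratio of -1.001, interval -2.07 to -0.18), from -1.07 to -0.15 over the alternatives. Opposite-strand exons of ZNF740 cover 42.1% of the exon bases of ITGB7, and those of HASPIN cover 6.41% of the exon bases of ITGAE. Reads in the shared parts cannot be told apart without strand. On FPKM with a pseudocount of 1, every leukocyte-type gene was within 2-fold of CAL27 except ITGB2 in CAL27/5FU.

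Of the 6 tested leukocyte-type genes, 1 was higher and 2 were lower in CAL27/5FU, and 0 were higher and 4 were lower in CAL27/OXA. Over all tested genes, 8.43% were higher and 6.7% lower in CAL27/5FU, and 6.54% and 9.28% in CAL27/OXA. The group's median log2 ratio was -0.06 in CAL27/5FU and -1.38 in CAL27/OXA. Over the alternatives the former ran from -0.78, with genes under a mean of 50 counts left out, to 0.11, with positive values under total-count scaling and on FPKM, and the latter from -1.44 to -0.19, the value on FPKM with a pseudocount of 1. Leukocyte markers were checked beside these values. PTPRC, the pan-leukocyte marker CD45, had 2, 0 and 0 counts, SPI1 and MS4A1 had 0 in every library, and CD3E had 7 in each. LYZ had 2, 5 and 0 counts. Of the 8 markers, 3 passed the filter, and the list summed to 105, 90.5 and 130.4 CPM (counts scaled to library size with TMM). CD14, a monocyte gene found in other cells too, had 637, 1290 and 341 counts. Like ITGB2, it rose in CAL27/5FU (1.01, interval 0.87 to 1.15) and fell in CAL27/OXA (-1.09, interval -1.285 to -0.90). Both CD14 intervals reached inside 2-fold, unlike those of ITGB2. The lysosomal gene CD68 had 3143, 1827 and 5055 counts, with log2 ratios of opposite sign to those of ITGB2 (-0.79 and 0.50), and CORO1A had 301, 412 and 390 counts (0.44 and 0.18). The part of these markers in the leukocyte-type values was not tested.

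The collagen-binding subunits were the group with the highest medians over 3 tested genes, 0.96 in CAL27/5FU (the value of ITGA2) and 1.12 in CAL27/OXA (that of ITGA1). ITGA1 (chr5:52787896-52959210, plus strand), the alpha subunit of a receptor that prefers basement membrane collagen, had 429 counts in CAL27, with 1586 in CAL27/5FU and 1068 in CAL27/OXA. It rose in both resistant lines, with a log2 ratio of 1.87 (interval 1.72 to 2.04) in CAL27/5FU and 1.12 (0.96 to 1.29) in CAL27/OXA, the latter being 0.96 on FPKM with a pseudocount of 1. ITGA2 (chr5:52989326-53094779, plus strand), the alpha subunit of the main collagen receptor of keratinocytes, had 1460, 2861 and 4012 counts. It rose in CAL27/OXA (1.27, interval 1.18 to 1.36) and was at 0.96 (0.87 to 1.06) in CAL27/5FU, which became 1.13 at most over the alternatives and was then past 2-fold. ITGA10, a cartilage collagen receptor subunit, had 64, 41 and 51 counts, with log2 ratios below 0 in both lines (-0.63 and -0.50). ITGA11, known from fibroblasts, had 2, 9 and 10 counts and was not tested.

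ITGA1 and ITGA2 lie next to each other on chromosome 5, with starts 201430 bases apart. PELO, which starts 44 bases from ITGA1 on the same strand and shares 475 exon bases with it, had 2271, 2476 and 3028 counts, with log2 ratios of 0.12 and 0.23. The 5 nearest tested genes on each side of ITGA1 had a median log2 ratio of 0.16 in CAL27/5FU and 0.26 in CAL27/OXA. Windows of both genes are shown because both neighbours rose in CAL27/OXA and their starts share few features. That of ITGA1 (chr5:52787666-52787965, plus strand) held a TCF/LEF match at position 159 and 0 GC boxes. That of ITGA2 (chr5:52989102-52989401, plus strand) held 4 GC boxes, which are not in capitals, and no match to the other 3 motifs, with a GC content of 72.7%.
ITGA1: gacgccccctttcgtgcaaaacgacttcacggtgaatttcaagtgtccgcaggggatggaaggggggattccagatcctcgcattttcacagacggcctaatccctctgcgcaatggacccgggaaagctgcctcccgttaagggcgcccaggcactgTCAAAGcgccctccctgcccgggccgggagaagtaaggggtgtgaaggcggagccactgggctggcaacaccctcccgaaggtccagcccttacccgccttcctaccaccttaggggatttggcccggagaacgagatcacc
ITGA2: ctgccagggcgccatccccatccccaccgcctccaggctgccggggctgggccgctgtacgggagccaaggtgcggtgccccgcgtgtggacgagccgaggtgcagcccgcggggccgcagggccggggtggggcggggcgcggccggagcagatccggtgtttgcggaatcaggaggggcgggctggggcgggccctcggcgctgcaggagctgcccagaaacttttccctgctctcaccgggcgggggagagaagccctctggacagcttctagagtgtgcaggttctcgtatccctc

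The other integrins moved less. ITGA3 had 37705, 40158 and 60993 counts, with log2 ratios of 0.08 and 0.50, and ITGA7, the alpha7 laminin receptor of muscle, had 24, 15 and 26. ITGB8, which forms a TGF-beta activating receptor with alphav, had 1238, 1103 and 996 counts. ITGB5, the vitronectin receptor beta subunit (chr3:124761948-124901418, minus strand), had 1405, 876 and 2039 counts and was past 2-fold between the resistant lines alone, with a log2 ratio of 1.03 (interval 0.92 to 1.15) for CAL27/OXA over CAL27/5FU. Its ratio was 0.88 to 1.04 over the alternatives. ITGA9, a tenascin receptor subunit, had at most 3 counts.

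By share of summed FPKM, the receptor make-up differed between lines. ITGB4 supplied 45.8% of the FPKM of all beta subunits in CAL27, with 30.9% in CAL27/5FU and 42.8% in CAL27/OXA. ITGB1 supplied 36.7%, 50.02% and 48.1%, so that the ITGB4 to ITGB1 ratio of FPKM was 1.25, 0.618 and 0.889. ITGB6 supplied 12.8%, 13.0% and 3.84%. Among alpha subunits, ITGA3 had 43.5%, 54.5% and 57.8% and ITGA5 had 21.2%, 16.6% and 9.09%, whereas ITGA6 had 21.4%, 13.5% and 20.4%. These shares come from 1 library each and are sums of RNA, not of protein at the surface.

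**Figure D3:**
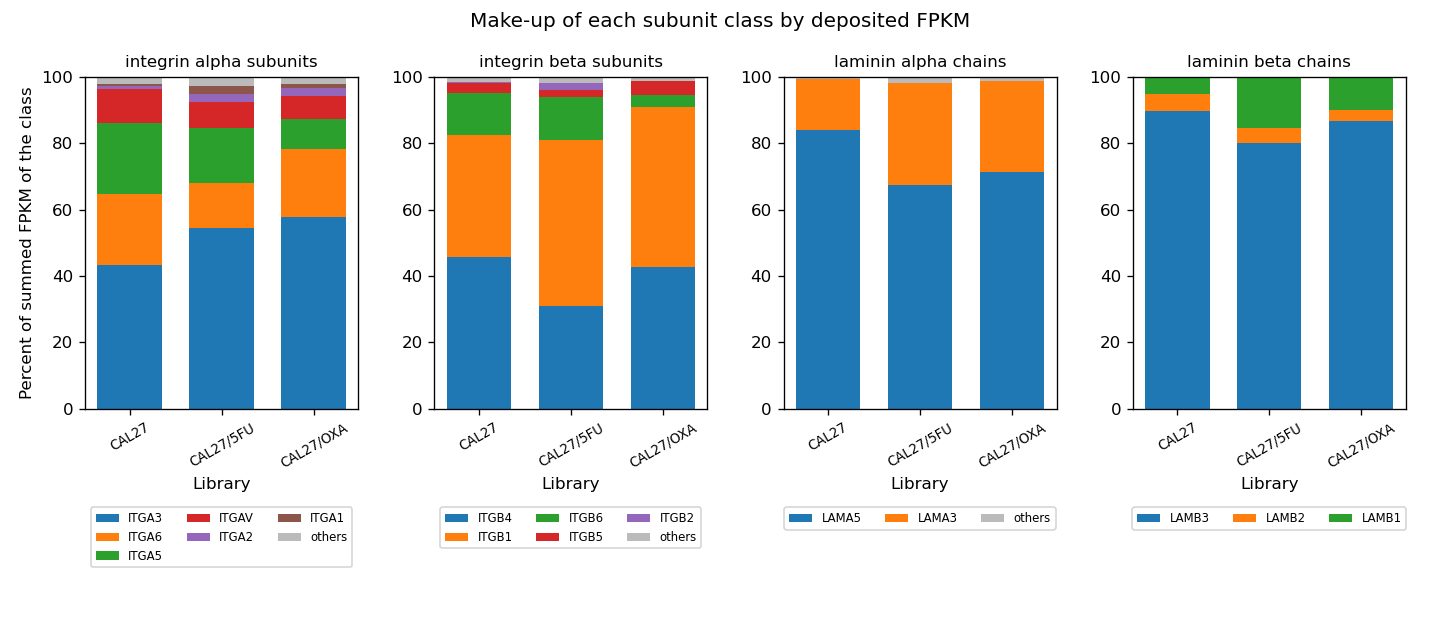
Share of the summed deposited FPKM of integrin alpha subunits, integrin beta subunits, laminin alpha chains and laminin beta chains in each library, in percent; "others" joins genes under 2% in every library. ITGB4 is the largest beta subunit block in CAL27 (45.8%) and ITGB1 in CAL27/5FU (50.02%), and LAMB1 widens from 4.95% of the laminin beta chains in CAL27 to 15.2% in CAL27/5FU.

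Among the other laminin chains past 2-fold, LAMB1 had the most counts. LAMB1, the beta1 chain of laminins found in most basement membranes (chr7:107923799-108003255, minus strand), had 4299 counts in CAL27, with 11984 in CAL27/5FU and 12521 in CAL27/OXA. Both resistant lines were above CAL27 and close to each other. The log2 ratio was 1.47 (interval 1.42 to 1.52) in CAL27/5FU and 1.35 (1.30 to 1.40) in CAL27/OXA, and -0.12 between the resistant lines. It stayed past 2-fold against CAL27 in every alternative of scaling, filter, prior count and unit. LAMB2, the beta2 chain, had 4494, 3537 and 4099 counts, and the FPKM ratio of LAMB1 to LAMB2 was 0.950 in CAL27, with 3.37 in CAL27/5FU and 3.03 in CAL27/OXA.

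LAMA5, the alpha chain of laminin-511 and the leading alpha chain here, had 50131, 33584 and 31074 counts, highest in CAL27 with log2 ratios of -0.58 and -0.88. LAMC1, the common gamma chain, had 12167, 15993 and 15862 counts, with log2 ratios of 0.39 and 0.19. Of the summed FPKM of laminin alpha chains, LAMA5 supplied 84.1% in CAL27, with 67.6% in CAL27/5FU and 71.5% in CAL27/OXA, and LAMA3 supplied 15.5%, 30.6% and 27.3%. The LAMB1 window (chr7:108003112-108003411, minus strand), shown for the chain that rose in both lines, had 4 GC boxes, a GC content of 71% and no match to the other 3 motifs.
LAMB1: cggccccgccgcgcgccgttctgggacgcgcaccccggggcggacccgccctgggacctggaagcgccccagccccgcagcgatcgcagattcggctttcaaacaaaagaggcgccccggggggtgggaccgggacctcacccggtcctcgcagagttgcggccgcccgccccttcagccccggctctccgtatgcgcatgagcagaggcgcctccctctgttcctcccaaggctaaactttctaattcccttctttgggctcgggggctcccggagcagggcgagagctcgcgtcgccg

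LAMA4, the alpha chain of vascular and mesenchymal laminins (chr6:112108760-112254939, minus strand), had 104 counts in CAL27, with 369 in CAL27/5FU and 88 in CAL27/OXA. It was high in CAL27/5FU alone, with a log2 ratio of 1.801 (interval 1.50 to 2.15) against CAL27 and of -2.22 (-2.60 to -1.91) for CAL27/OXA over CAL27/5FU. LAMA2, the muscle laminin alpha chain, had 11, 31 and 59 counts and rose in both lines (1.34, interval 0.46 to 2.63, and 2.06, 1.29 to 3.31), although on FPKM with either pseudocount it was within 2-fold. Endothelial and fibroblast markers were read beside these chains. Of the 3 endothelial markers, CDH5 had 43, 338 and 163 counts and rose in both lines (2.91, interval 2.51 to 3.46, and 1.69, 1.24 to 2.25). PECAM1 had 13, 6 and 11 counts and was within 2-fold in both. VWF had 44, 19 and 29 counts and fell in CAL27/5FU (-1.14, interval -2.08 to -0.41), with -0.75 in CAL27/OXA. Of the fibroblast markers, COL1A1 had the most counts, 1387, 1068 and 1050 (log2 ratios of -0.38 and -0.59), whereas COL1A2 (90, 300 and 212) and LUM (120, 414 and 877) rose in both lines. COL3A1 had 0 counts in all, DCN at most 8 and PDGFRB 35, 55 and 76, and the 6 fibroblast markers summed to 41.9, 47.1 and 50.04 CPM. The part of such programmes in the laminin values was not tested.

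LAMA1, the alpha chain of embryonic laminin-111 (chr18:6941744-7117814, minus strand), was near or under the floor of 3 counts in the lines other than CAL27/OXA. It had 3 counts in CAL27, with 0 in CAL27/5FU and 220 in CAL27/OXA. Its plain count ratio for CAL27/OXA over CAL27 was 64.3 (log2 ratio with the prior count of 5.31, interval 4.44 to 8.30). With the 0 of CAL27/5FU read as that floor, the plain ratio of CAL27/OXA to CAL27/5FU was 64.6. The counting interval of this pair, formed with the 0 itself, began at 52.1-fold and had no upper end. In FPKM the level in CAL27/OXA was 0.524, far under LAMA5 at 62.5. On FPKM with a pseudocount of 1 the log2 ratio to CAL27 was 0.60, within 2-fold. An antisense gene, AP002409.1, shares 10.3% of its exon bases. LAMC3 had 2, 0 and 4 counts and was not tested.

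For the other laminin chains, 3 were higher and 0 were lower in each resistant line against CAL27, of 7 tested. LAMA4 was among the higher ones in CAL27/5FU and LAMA1 in CAL27/OXA. LAMA1 reached the filter only through its 220 counts in CAL27/OXA, so its calls there are not independent of the filter. In CAL27/5FU it could not be called against CAL27. All tested genes gave 8.43% higher and 6.7% lower in CAL27/5FU, and 6.54% and 9.28% in CAL27/OXA. The group's median log2 ratio was 0.87 in CAL27/5FU, where LAMA1 had no ratio, and 0.19 in CAL27/OXA, and these became 0.39 and -0.06 when genes under a mean of 50 counts were left out. On FPKM with a pseudocount of 1 the former was 0.31. Between the resistant lines, 2 of the 31 tested genes, ITGB5 and LAMA1, were higher in CAL27/OXA and 5 were lower, namely ITGB6, ITGAD, ITGB2, ITGB7 and LAMA4. Over all tested genes, 4.17% were higher and 8.37% lower.

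The 3 role groups named first differed in their pattern, as counts and medians and without a test. The hemidesmosomal median log2 ratio was -0.61 in CAL27/5FU and 0.10 in CAL27/OXA, with 0 of 4 genes past 2-fold. That of the fibronectin-binding group was -0.28 and 0.26 with 3 of 7 genes past 2-fold in at least 1 line, ITGA5, ITGB3 and ITGB6. Its value in CAL27/5FU ran from -0.36 to -0.02 over the alternatives. Its value in CAL27/OXA was the ratio of ITGB1 and turned to -0.46 with genes under a mean of 50 counts left out. The median of the leukocyte-type group was -0.06 and -1.38, neither of which was stable in size over the alternatives. In that group 5 of 6 genes were past 2-fold in at least 1 line, all but ITGAE. Of all tested genes, 22.4% were past 2-fold in at least 1 line. The median size of the log2 ratio over all tested genes, sign aside, was 0.33 and 0.34. The groups differ in depth as well, since hemidesmosomal genes had 5478 counts or more in every library and leukocyte-type genes had 543 or fewer.

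Positions were compared with neighbouring genes, 5 tested genes on each side. For the 27 ratios past 2-fold over the 3 comparisons, in 15 genes, the neighbours' median was past 2-fold in the same direction in 1, ITGB5 for CAL27/OXA over CAL27/5FU. The neighbours of ITGB5 had a median log2 ratio of -1.03 in CAL27/5FU, with 6 of 10 lower, and of 0.18 in CAL27/OXA. The adjacent gene UMPS, which makes the pyrimidine precursor UMP and converts 5FU to its nucleotide, was among them at -1.04 and 0.28. Around LAMA1, 7 of 10 neighbours were higher in CAL27/5FU, with a median of 1.12, where LAMA1 itself had 0 counts. In CAL27/OXA the same neighbours had a median of 0.36 and only EPB41L3 was past 2-fold, at 2.76. Copy number was not measured, and its part in these values was not tested.

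**Figure D4:**
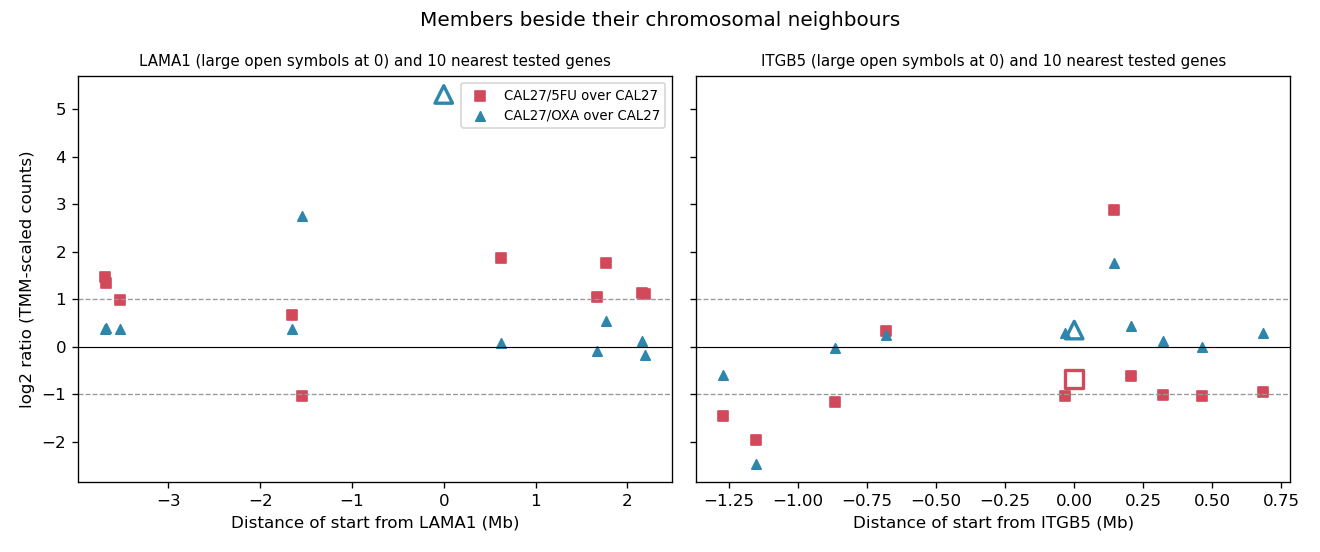
Log2 ratios of TMM-scaled counts against CAL27 for LAMA1 (left) and ITGB5 (right), as large open symbols at 0, and for the 10 nearest tested genes by the distance of their lower-coordinate ends in Mb; squares stand for CAL27/5FU, triangles for CAL27/OXA and dashed lines for 2-fold. Most LAMA1 neighbours lie above the upper line in CAL27/5FU (7 of 10) and most ITGB5 neighbours below the lower line (6 of 10).

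The partners of these receptors were read from 3 lists. For comparison with the counts in each list, 8.43% of all tested genes were higher and 6.7% lower in CAL27/5FU. In CAL27/OXA these shares were 6.54% and 9.28%. Of 12 hemidesmosome and basement membrane partners, 11 were tested, with 1 higher and 1 lower in CAL27/5FU and 1 higher and 2 lower in CAL27/OXA. COL17A1, the transmembrane collagen of hemidesmosomes, had 66476, 25563 and 69034 counts and fell in CAL27/5FU (log2 ratio of -1.39, interval -1.41 to -1.36), the line in which ITGA6 and ITGB4 were lowest. The cytoplasmic linkers PLEC and DST were within 2-fold. COL4A1, a basement membrane collagen chain, rose in CAL27/5FU (1.12), BCAM, a laminin alpha5 receptor, rose in CAL27/OXA (1.59), and HSPG2, or perlecan, and the dystroglycan gene DAG1 fell there (-1.66 and -1.09).

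Of 9 ligands, 7 were tested, with 3 higher and 0 lower in CAL27/5FU and 2 higher and 0 lower in CAL27/OXA. THBS1, thrombospondin 1, had 5936, 35384 and 12242 counts and rose in CAL27/5FU with a log2 ratio of 2.57 (interval 2.53 to 2.61). SPP1, the osteopontin gene and a ligand of alphav integrins, had 10, 62 and 199 counts (2.42 and 3.89), and FBN1, fibrillin 1, had 18, 273 and 66 (3.78 and 1.59). Thus, SPP1 and FBN1 were above CAL27 in both lines. FN1, fibronectin itself, had 4921, 6415 and 10802 counts, with log2 ratios of 0.38 and 0.94, and did not pass 2-fold.

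All 18 adaptor and signalling genes were tested, with 0 higher and 3 lower in CAL27/5FU and 1 higher and 3 lower in CAL27/OXA. TNS4, a tensin of epithelial cells that binds beta integrin tails, had 8330, 2854 and 3037 counts and fell in both lines (-1.55 and -1.64). PTK2, the focal adhesion kinase gene, had 5672, 2901 and 3013 counts and fell in CAL27/OXA (-1.10), with -0.97 in CAL27/5FU. FERMT3, the kindlin of blood cells, had 281, 113 and 201 counts and fell in CAL27/5FU (-1.31). TNS1 had 74, 15 and 191 counts, lower in CAL27/5FU (-2.17) and higher in CAL27/OXA (1.16). The talin gene TLN1 had log2 ratios of 0.03 and -0.34 and was within 2-fold.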

How the data were processed

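Each line (CAL27, CAL27/5FU, CAL27/OXA) was represented by 1 RNA-seq library. The authors had the libraries made with an NEBNext Ultra RNA kit and sequenced on an Illumina platform by Novogene. The submitters' processing notes name CASAVA 1.8, HISAT2 2.0.5 and the build GRCh38, without roles. The counting tool, the annotation and the strand setting are not given in the sources used here. The authors deposited raw counts per gene symbol (19220 genes) and FPKM (19225 genes), and for 100% of the 14367 genes counted in every library the deposited FPKM equalled counts per length and total counts within 0.1%. Each table holds 3 more columns of per-sample values, which match no label and were left out of every step. Their names repeat those of the 3 lines with another number, so they may be second libraries. The study called genes past 2-fold in FPKM with an adjusted p-value from DESeq2, which needs replicates, so no p-value was computed here.

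Counts were scaled with TMM factors in edgeR 4.0.16 (R 4.3.3) and the 13676 genes averaging 10 or more counts were given log2 ratios (prior count 2). Pairs with at most 3 counts in both libraries got no ratio, and a 0 was read as the floor of 3 counts. Intervals are exact 95% Clopper-Pearson intervals (scipy 1.17.1) of the pair of counts; reads without molecular identifiers are not independent molecules. The ratio and interval steps were run on simulated counts that held counting error only and were scaled by library totals. Such a run does not test TMM scaling or variation between cultures. Gene positions and exon overlaps come from GENCODE 29 (GRCh38) and start-site windows from RefSeq (GRCh38.p14). All 36 genes are named, and partner genes where the whole interval was past 2-fold in at least 1 comparison with CAL27, beside the cell type markers and PLEC, DST, FN1, TLN1, UMPS, PELO and EPB41L3, the latter 7 named after their values were seen. The genes, groups and lists were chosen with earlier results of these data known. Alternatives were scaling by DESeq2 1.42.0 size factors, total counts or upper quartile, other filters and prior counts, FPKM with a pseudocount of 1 or 0.1, and stricter calls.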

Additional observations from a re-analysis of the deposited data

Results flagged for a closer look

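ITGB2 moved in opposite directions in the resistant lines. Its log2 ratio against CAL27 was 2.26 in CAL27/5FU, from 102 to 497 counts, and -1.75 in CAL27/OXA, from 102 to 33 counts. The difference was not tested, since each line has 1 labelled library and both ratios use the same CAL27 library. On FPKM with a pseudocount of 1 the value in CAL27/OXA was -0.54 and that in CAL27/5FU was 1.60.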

How the results depend on the processing

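Of 92 log2 ratios of integrin and laminin genes, 90 kept their sign under the 9 alternatives of scaling, filter, prior count and unit, and the exceptions, ITGA7 for CAL27/OXA over CAL27 and LAMB2 for CAL27/OXA over CAL27/5FU, were near 0. None of the 27 ratios past 2-fold changed sign, and 17 came within 2-fold under at least 1 alternative, mostly on FPKM with a pseudocount of 1, which pulls low levels together by construction. Under that setting, 0 genes were lower in CAL27/5FU over CAL27, 2 were higher and 1 was lower in CAL27/OXA over CAL27, and 0 were higher and 3 were lower in CAL27/OXA over CAL27/5FU. With a pseudocount of 0.1, 3 were lower in CAL27/OXA over CAL27, and 1 was higher and 3 were lower in CAL27/OXA over CAL27/5FU. In this last comparison, total-count scaling gave 1 higher, no filter gave 4 higher, a mean of 50 counts gave 3 lower, and a whole interval past 2-fold gave 1 higher and 3 lower. A 4-fold limit left 2 higher and 1 lower in CAL27/5FU over CAL27, 3 and 2 in CAL27/OXA over CAL27, and 1 and 3 in CAL27/OXA over CAL27/5FU. All other counts were within 1.5 times the reported ones.

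Total-count scaling moved the median log2 ratio of all genes to 0.17 in CAL27/5FU and 0.14 in CAL27/OXA, and the genes higher and lower from 1153 and 916 to 1428 and 698 in the former and from 894 and 1269 to 1100 and 1052 in the latter. No paired analysis was possible because each line has 1 labelled library (the unlabelled columns, which may be second libraries, were not used), and for the same reason no library could be left out. Genes with few counts (ITGB3, ITGAD, ITGB7, LAMA2, ITGA2B, ITGA7) are limited by depth.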
